A study of Mus musculus with 9 samples.

Results

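Oxidative phosphorylation genes were described in whole pancreatic tumors of KPC mice, with the mRNAs made from mitochondrial DNA set against those made from nuclear DNA. Members were the protein-coding rows whose symbols begin with mt-Nd, mt-Co, mt-Cytb, mt-Atp, Ndufa, Ndufb, Ndufc, Ndufs, Ndufv, Uqcr, Cox4 to Cox8 or Atp5, together with Sdha to Sdhd. Pseudogenes were left out. The rule took 107 of the 54453 rows in the table. Among them were 13 mitochondrial mRNAs and 85 rows of nuclear subunits. The other 9 rows share a prefix but are not subunits of the finished enzymes: 8 are Ndufaf genes, which help to build complex I, and 1 is Atp5s, a coupling factor of ATP synthase.

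The KPC mouse is an engineered strain in which pancreatic ductal adenocarcinoma develops. RNA came from 9 primary tumors that were frozen whole. Of these, 4 were labelled Scrib WT (tumors 2, 3, 6 and 9, genotype written KPF/+C) and 5 Scrib null (tumors 7, 14, 15, 18 and 23, genotype KPF/+CSF/F), and both groups share the KPC background. Scrib encodes a polarity scaffold of epithelial cells, and the series compared tumors with and without it. The labels give no age and no sex, and do not state that each tumor came from its own mouse. A p-value here therefore measures spread among the tumors sampled, which may share an animal. The labels do not say in which cells Scrib was deleted. In a bulk tumor, fewer cells of a type and less RNA per cell cannot be told apart.

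The respiratory chain passes electrons from NADH and succinate to oxygen through complexes I to IV in the inner mitochondrial membrane, and the proton gradient it builds drives ATP synthase, complex V. Mitochondrial DNA encodes the hydrophobic core proteins of complexes I, III, IV and V, whereas complex II is encoded by nuclear genes alone. The remaining subunits are imported, so each shared complex is assembled from the products of 2 genomes. Mitochondrial mRNAs are cut from long transcripts that cover nearly the whole circular genome, and each nuclear subunit has a promoter of its own.

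The assigned estimated counts per tumor ranged from 10145830 to 27596832. Scrib itself averaged 70.5 ± 21.4 CPM (counts scaled to the library size; SD, n = 4) in the WT-labelled tumors and 60.3 ± 24.6 CPM (SD, n = 5) in the null-labelled ones, and its highest value, 102 CPM, was in null tumor 7. The gene's total level therefore did not separate the labels. Tumor WT 3 stood apart in many members, and tumor null 7 held the lowest level of fibroblast markers. Without WT tumor 3 the log2 fold change came nearer to 0 by over 1.5 times in 64 of the 80 nuclear subunits tested and turned its sign in 6 others. Without null tumor 7 it moved further from 0 by over 1.5 times in 6 of the 13 mitochondrial mRNAs. Values without WT tumor 3 stand beside most group medians and many of the members described in full. Values without null tumor 7 stand beside some of the mitochondrial results. Epithelial markers were high in all tumors: the 8 ductal markers summed to between 6023 and 9697 CPM. The acinar markers ranged from 7.26 to 571 CPM. A log2 fold change below is null over WT.

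Of the 13 mitochondrial genes, 9 have near-identical copies in nuclear DNA, and in these files a large part of the signal was counted on the copies. The copies are shown first because they set what a mitochondrial row measures. On chromosome 1, a block of pseudogenes repeats part of mt-Co1, mt-Co2, mt-Atp6, mt-Co3, mt-Nd3, mt-Nd4l and part of mt-Nd4 in the order of the mitochondrial genome. The mt-Co2 transcript, which encodes a core subunit of complex IV, is identical to the pseudogene Gm28661 over the 681 bases of the latter. The last bases of both transcripts are printed 5′ to 3′ from GENCODE M21 on GRCm38, mt-Co2 at chrM:7637-7696 on the plus strand and Gm28661 at chr1:24614885-24614941 on the minus strand, and capitals mark the bases of mt-Co2 that lie past the end of the copy.
mt-Co2: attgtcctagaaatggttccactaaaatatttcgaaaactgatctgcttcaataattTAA
Gm28661: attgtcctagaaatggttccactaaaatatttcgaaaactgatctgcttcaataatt
The first bases of mt-Nd3, a complex I subunit, at chrM:9459-9518 on the plus strand, and of its copy Gm28438, at chr1:24613060-24613119 on the minus strand, show a pair that differs within the window. Capitals mark the mismatch, T3C, counted from 1 at the first base of mt-Nd3.
mt-Nd3: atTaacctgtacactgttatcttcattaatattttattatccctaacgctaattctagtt
Gm28438: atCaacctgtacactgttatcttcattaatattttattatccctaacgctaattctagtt

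Over the 9 tumors, 3550878 counts lay on the 13 mitochondrial rows and 1803588 on their copies, so the copies held 33.7% of the sum. Copies were defined as pseudogene transcripts at least 95% identical over at least 80% of the shorter transcript. Gm28661 held 91.1% of the counts of the mt-Co2 pair. Gm10925 held 84.7% of those of mt-Atp6, a subunit of the proton channel of ATP synthase, and Gm28437 held 83.4% of those of mt-Co3, the third core subunit of complex IV. These 3 copies are 100% identical to their genes along their whole length. Gm29216 is shorter and held 11.8% of the counts of the mt-Co1 pair. Copies of mt-Nd3, mt-Nd4 and mt-Nd4l were listed at 0 counts in every tumor. The sequences alone cannot tell whether a read on an identical pair came from mitochondrial or nuclear DNA.

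The row of mt-Co2 on its own read 313, 684, 473 and 185 CPM in WT tumors 2, 3, 6 and 9, and 454, 423, 62.7, 206 and 221 CPM in null tumors 7, 14, 15, 18 and 23. With the copies added it read 4787, 5093, 5554 and 2848 CPM in WT and 5235, 3048, 1234, 3551 and 1622 CPM in null. Highest and lowest tumors differed 10.9-fold on the row alone and 4.50-fold with the copies added, which is close to the 4.93-fold range of mt-Co1. The groups overlapped on either count.

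The share of counts on the copies also differed between tumors. For mt-Co1 it was 29.3% in WT tumor 3 and between 7.86% and 13.3% in the other 8 tumors. For mt-Atp6 the lowest share was again that of WT tumor 3, 68.2%, and the highest was 90.0% in null tumor 18. Every member is therefore given on its own row. Log2 fold changes with the copies added stand beside those of mt-Co1, mt-Co2, mt-Co3, mt-Atp6, Ndufb4, Ndufa12 and Ndufs5.

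**Figure D1:**
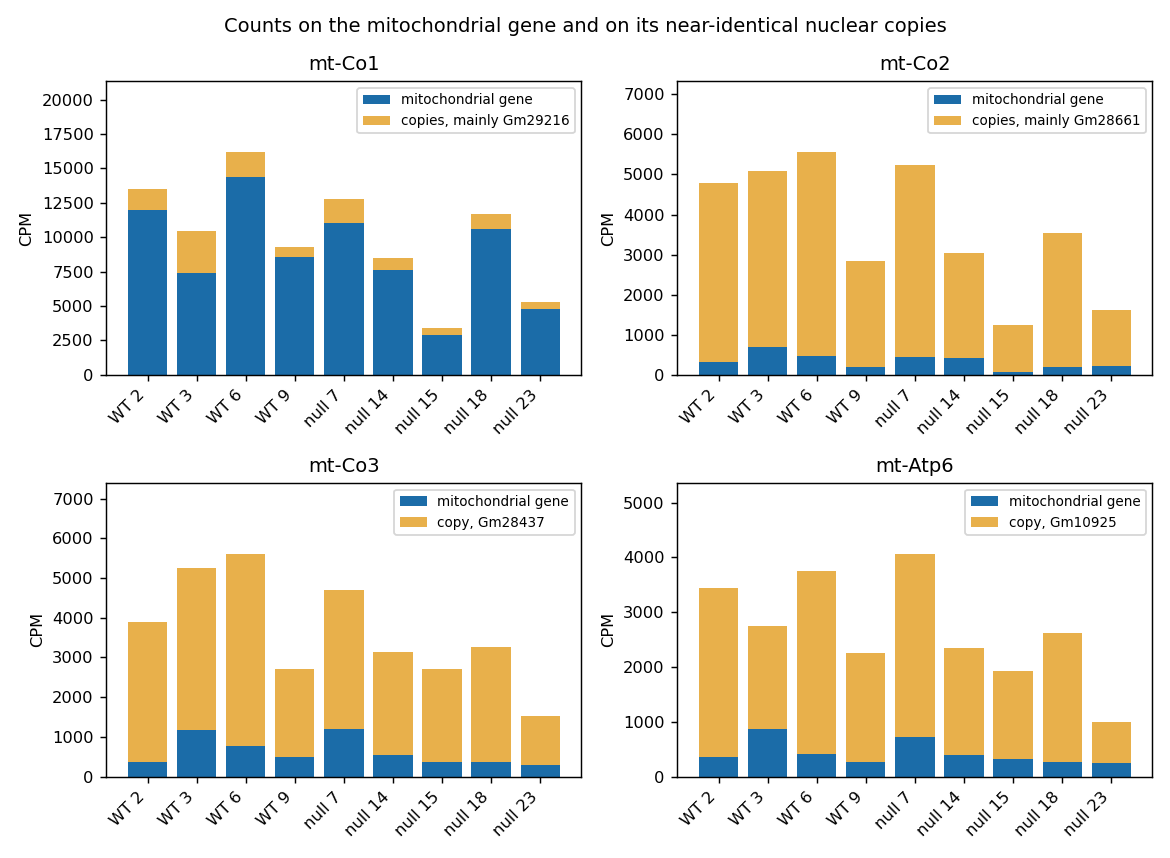
Stacked bars of CPM per tumor for mt-Co1, mt-Co2, mt-Co3 and mt-Atp6, with the mitochondrial row in blue and the near-identical nuclear copies in yellow. The blue part of mt-Co2 is at most 684 CPM, while the full bar reaches 5554 CPM in WT tumor 6.

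Neighbouring mitochondrial genes share bases as well. The end of mt-Atp8, the small accessory subunit of ATP synthase, runs into the start of mt-Atp6 on the same strand. The stretch at chrM:7912-7969, plus strand, is printed 5′ to 3′ with the 43 bases common to both genes in capitals, beginning with the start codon of mt-Atp6.
mt-Atp8 end: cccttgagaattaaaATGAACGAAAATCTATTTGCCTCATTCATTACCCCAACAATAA
On the same strand, mt-Nd4l and mt-Nd4 share 7 bases. On opposite strands, mt-Nd5 and mt-Nd6 share 14 bases, and whether strand was used in counting is not stated in the labels.

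Per kilobase of transcript the mitochondrial mRNAs were the most abundant members. They took 12 of the 14 highest places among the 102 members that passed the filter on low counts. The mean over the 9 tumors was 5704 CPM per kilobase for mt-Co1, the catalytic subunit of complex IV, 2517 for mt-Cytb, the mitochondrial subunit of complex III, and 2107 for mt-Nd1 of complex I. With the copies added the order changed: mt-Co1 was still first, at 6548 CPM per kilobase, and mt-Co2 went from place 14 to place 2, at 5356. It was followed by mt-Co3 at 4649 and mt-Atp6 at 3941, all above mt-Cytb and mt-Nd1. The first nuclear gene in the order was Cox4i1, the common form of complex IV subunit 4, at 764 CPM per kilobase, in place 8 on the rows alone and place 10 with the copies added. At the low end of the mitochondrial mRNAs was mt-Nd6, at 13.8 CPM per kilobase. Summed over genes, mitochondrial mRNAs exceeded nuclear subunits in 7 of the 9 tumors by 1.35-fold to 3.15-fold. WT tumor 3 and null tumor 15 were the exceptions, with ratios of 0.858 and 0.779. With the copies added to both sides these 2 ratios were 1.46 and 1.35, and the mitochondrial sum was the larger in all 9 tumors.

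Mitochondrial mRNAs took 2.66%, 1.55%, 2.96% and 1.88% of all counts in WT tumors 2, 3, 6 and 9. In null tumors 7, 14, 15, 18 and 23 they took 2.57%, 1.61%, 0.788%, 2.01% and 1.10%. Null tumors 15 and 23 were the lowest of the 9, and null tumor 7 lay between WT tumors 2 and 9. The mean share was 2.26% ± 0.66 (SD, n = 4) in WT and 1.62% ± 0.71 (SD, n = 5) in null, a difference of -0.65 percentage points that is smaller than either SD. With the copies added the means were 3.43% ± 0.91 and 2.44% ± 1.05. That difference, -0.997 percentage points, is larger than the WT SD and smaller than the null SD. The 4 nuclear-retained RNAs measured beside them (Malat1, Neat1, Kcnq1ot1 and Meg3) were highest in null tumor 7 and lowest in null tumor 15, with mean log2 CPM of 6.40 and 4.18. Whether the 2 levels are linked was not tested.

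No member passed the test between the groups. Under edgeR's quasi-likelihood test with Benjamini-Hochberg adjustment over 16169 genes, 2 genes were called, or 0.0124% of those tested, and each was lower in null. None of the 102 members was among them. At an unadjusted p under 0.05, 31 members were lower in null and 0 higher, and the background was 10.0% of all genes lower and 7.64% higher. The count of members lower at that p moved with the setting. It rose to 64 with the macrophage marker level as a term (11.6% of all genes lower), to 53 without WT tumor 2 (11.7%) and to 47 with upper-quartile scaling (12.6%). It fell to 17 without null tumor 18 (7.17%) and to 17 without null tumor 23 (9.06%). The lowest counts were 4 without WT tumor 3 (6.61%) and 4 with the range of the tumor identifiers as a term (6.22%). Without both WT tumor 3 and null tumor 7 it was 9 (6.59%). DESeq2, run without the edgeR filter on low counts, called 642 of 30346 genes and 0 of 104 members. Limma-voom called 6 of 16169 genes and 0 of 102 members. The smallest adjusted p of a member with edgeR was 0.208, for Ndufa6.

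The log2 fold changes of the members had a median of -0.69 over the 80 nuclear subunits tested, -0.51 over the 13 mitochondrial mRNAs and -0.36 over the 9 assembly and coupling factors, against -0.03 over all genes tested. Below 0 were 72 nuclear subunits, 12 mitochondrial mRNAs and all 9 assembly and coupling factors, where 52.2% of all genes tested were below 0. The nuclear subunits above 0 numbered 8, and 4 with upper-quartile scaling, under which Atp5d, Ndufa10, Ndufs1 and Uqcrc1 were below 0. Of the mitochondrial mRNAs 0 reached an unadjusted p under 0.05. Without null tumor 7, 4 of the 13 were lower at that p, against 8.61% of all genes, with a mitochondrial median of -0.74. Without both WT tumor 3 and null tumor 7, 6 of the 13 were lower, against 6.59% of all genes, with a median of -0.80. With the range of the tumor identifiers as a term, the nuclear and mitochondrial medians were -0.66 and -0.65 and 4 of the 102 members were lower at that unadjusted p, against 6.22% of all genes. Without WT tumor 3 the nuclear median was -0.22 and the mitochondrial median -0.56, and 4 of the 102 members were lower at that unadjusted p, against 6.61% of all genes.

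**Figure D2:**
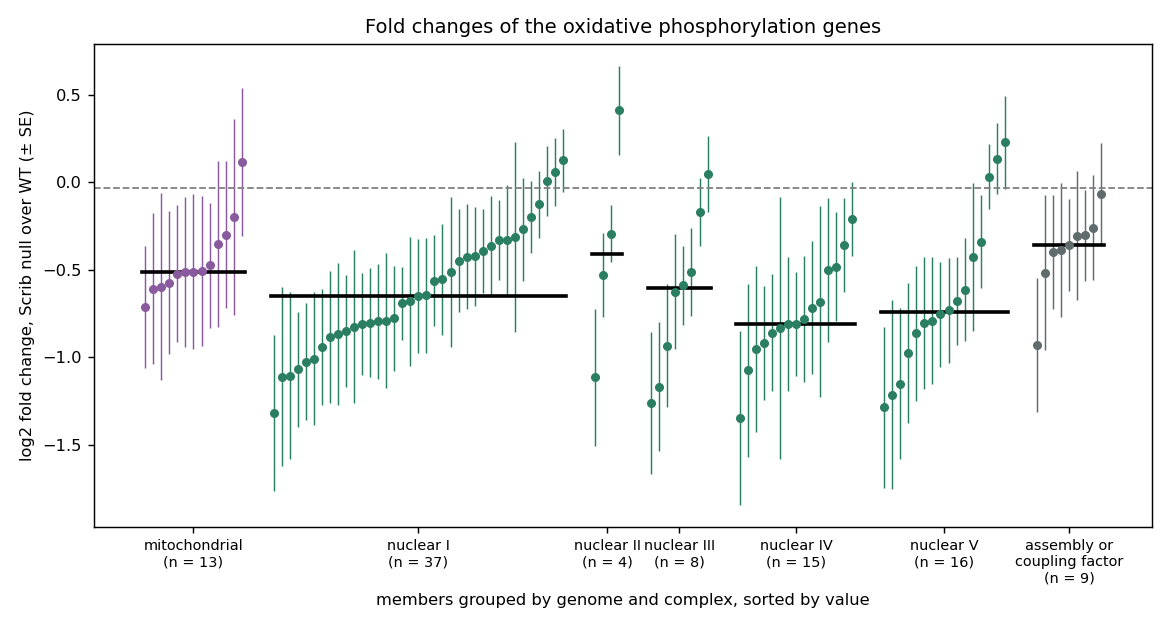
Log2 fold change of each of the 102 members tested, null over WT, with its SE, grouped by genome and complex and sorted within each group. Black lines mark the group medians, from -0.36 to -0.81, and the dashed line the median of all genes tested, -0.03. Most members lie below the dashed line, and the 8 nuclear subunits above 0 (4 with upper-quartile scaling) come from complexes I, II, III and V.

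In complex I the mitochondrial genes encode 7 membrane-arm subunits. Their log2 fold changes ranged from -0.20 for mt-Nd6 to -0.61 for mt-Nd5. The row of mt-Nd1 read 2849, 1933, 3076 and 1795 CPM in WT and 3463, 1537, 812, 1764 and 915 CPM in null. Null tumor 7 was the highest of all 9 and null tumor 15 the lowest, so the spread within null exceeded the difference between the groups (log2 fold change -0.51 ± 0.43 SE, edgeR adjusted p = 0.536). Without null tumor 7 the log2 fold change was -0.92. Null tumors 7 and 15 differed 4.27-fold for mt-Nd1, 4.29-fold for mt-Nd4 (2303 and 537 CPM) and 3.09-fold for mt-Nd2 (1138 and 368 CPM). In mt-Nd2 and mt-Nd4 the highest of all 9 was WT tumor 6. In mt-Nd5 the order was different: WT tumors 2 and 6 read 2033 and 1872 CPM, and WT tumor 3 read 613 CPM, as low as null tumor 23 at 607 CPM. The low row of mt-Nd6 read 10.1, 6.10, 11.5 and 3.08 CPM in WT and 15.1, 7.52, 3.63, 4.74 and 2.65 CPM in null. Its group means, 7.70 ± 3.84 and 6.72 ± 5.01 CPM, differed by less than the spread. For mt-Nd3 and mt-Nd4l the log2 fold changes were -0.52 and -0.51.

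The mitochondrial gene of complex III, mt-Cytb, had the smallest p among the 13 mitochondrial mRNAs. It read 3876, 3321, 4620 and 2896 CPM in WT and 3600, 2376, 1137, 2448 and 1643 CPM in null. All null tumors except tumor 7 lay below all WT tumors. The log2 fold change was -0.72 ± 0.35 (SE), with an edgeR adjusted p of 0.307. It was -0.72 without WT tumor 3 and -0.94 without null tumor 7.

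In complex IV, mt-Co1 read 11962, 7378, 14397 and 8538 CPM in WT and 11046, 7648, 2923, 10602 and 4820 CPM in null. The groups overlapped widely, with null tumors 7 and 18 above WT tumors 3 and 9 (log2 fold change -0.51 ± 0.43 SE, edgeR adjusted p = 0.530, and -0.57 with the copy added). The row of mt-Co1 gave -0.61 without WT tumor 3 and -0.68 without null tumor 7. For mt-Co2 the log2 fold change was -0.60 on its row and -0.64 with the copies added, and for mt-Co3 it was -0.35 and -0.51. Without WT tumor 3 the row of mt-Co3 gave 0.04 and that of mt-Atp6 gave 0.20, so the sign of these 2 rows rested on that tumor.

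In complex V, mt-Atp8 was the mitochondrial mRNA with a log2 fold change above 0, at 0.11 ± 0.42 (SE; edgeR adjusted p = 0.906). It read 231, 95.8, 184 and 130 CPM in WT and 306, 192, 117, 189 and 62.2 CPM in null. Both the highest and the lowest value were in null tumors. The sign was not stable: it was below 0 with limma-voom (-0.33), with the identifier range (-0.14) or the macrophage level (-0.27) as a term, without null tumor 7 (-0.17) and without WT tumor 3 (-0.03). For mt-Atp6, whose first bases overlap it, the log2 fold change was -0.30 on the row and -0.35 with the copy added.

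Nuclear subunits of complex I, the NADH dehydrogenase, numbered 37 with Ndufa4 counted in complex IV. Its paralog Ndufa4l2 was kept among the 37 by its prefix. All 37 passed the filter, 34 of them were below 0 and their median log2 fold change was -0.65, or -0.21 without WT tumor 3. The 11 Ndufs and Ndufv genes, most of which encode the catalytic core or bind its iron-sulfur clusters and flavin, had a median of -0.37. The supernumerary Ndufa, Ndufb and Ndufc genes, which stabilise the complex around that core, had a median of -0.78 over 27 genes including Ndufa4 and Ndufa4l2. These medians were -0.05 and -0.23 without WT tumor 3.

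Ndufa6, a supernumerary subunit (chr15:82350140-82354322, minus strand), had the smallest p of all members. It read 81.4, 148, 90.0 and 98.5 CPM in WT and 56.2, 67.0, 72.6, 61.5 and 66.3 CPM in null. All WT tumors were above all null tumors. The log2 fold change was -0.69 ± 0.21 (SE), and -0.44 without WT tumor 3. Groups that did not overlap were found in 5 members, all lower in null, where 6.91% of all genes did not overlap, 3.49% lower in null and 3.42% higher.

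Ndufb6, another supernumerary subunit of the membrane arm (chr4:40270591-40279421, minus strand), also did not overlap. It read 31.1, 80.3, 44.0 and 30.6 CPM in WT and 29.8, 29.0, 26.6, 25.1 and 22.1 CPM in null. WT tumors 2 and 9 lay close to null tumors 7 and 14, and WT tumors 3 and 6 well above (log2 fold change -0.81 ± 0.29 SE, edgeR adjusted p = 0.232). The log2 fold change was -0.38 without WT tumor 3.

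Ndufs4, an accessory subunit of the NADH-oxidising module, read 53.1, 164, 121 and 56.8 CPM in WT and 39.7, 54.3, 54.5, 40.8 and 46.2 CPM in null. WT tumors 3 and 6 stood above all others, and WT tumor 2 lay among the null tumors. Its log2 fold change was -1.07 ± 0.33 (SE, edgeR adjusted p = 0.215) and -0.68 without WT tumor 3. Further from 0 was Ndufb4, at -1.32 ± 0.45 (SE), with -0.51 without WT tumor 3 and -1.40 with the copy added. Its row read 12.0, 64.3, 21.6 and 16.4 CPM in WT against 9.42 to 14.0 CPM in null, and 73.7% of the counts of the pair lay on Ndufb4c, a pseudogene identical to it over 390 bases. Copies also held 18.5% of the counts of Ndufa12 (Gm15920) and 18.3% of those of Ndufs5 (BC002163). With the copy added, Ndufs5 went from a log2 fold change of -0.37 to -0.73 and Ndufa12 from -0.39 to -0.25.

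Other complex I genes at an unadjusted p under 0.05 were Ndufa1, Ndufa3, Ndufa8, Ndufa11, Ndufb2, Ndufb3, Ndufb5, Ndufb10 and Ndufv2. Their log2 fold changes ran from -1.10 for Ndufb2 to -0.78 for Ndufb5, with WT tumor 3 the highest of the 9 tumors in each. Ndufv2, which holds an iron-sulfur cluster next to the flavin, read 69.9, 276, 144 and 72.8 CPM in WT against 56.1 to 81.4 CPM in null. In contrast its partner Ndufv1, the flavin-binding subunit, read 91.3, 90.8, 84.1 and 81.1 CPM in WT and 120, 91.9, 98.6, 82.4 and 80.2 CPM in null. Ndufv1 was even across WT tumors, WT tumor 3 included, and its log2 fold change was 0.12 ± 0.18 (SE, edgeR adjusted p = 0.722). Ndufs1, the largest subunit of the electron-input arm, was at 0.06 and Ndufa10 at 0.01, each below 0 with upper-quartile scaling, and Ndufs8 was at -0.56.

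Complex II, succinate dehydrogenase, links the chain to the TCA cycle through 4 nuclear subunits, and these 4 did not share a direction. Sdha, the flavoprotein (chr13:74322254-74350280, minus strand), had the highest log2 fold change of all members, 0.41 ± 0.25 (SE, edgeR adjusted p = 0.398). It read 177, 71.6, 112 and 124 CPM in WT and 189, 153, 163, 141 and 159 CPM in null. WT tumor 3 was the lowest of all 9 for Sdha, while WT tumor 2 was within the null tumors. The log2 fold change was 0.27 without WT tumor 3.

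Sdhb, the iron-sulfur subunit (chr4:140961203-140979193, plus strand), read 80.7, 108, 84.1 and 89.4 CPM in WT and 76.5, 73.0, 76.2, 66.9 and 76.8 CPM in null. The groups did not overlap, with WT tumor 2 and null tumor 23 the nearest, and the log2 fold change was -0.29 ± 0.16 (SE, edgeR adjusted p = 0.352), or -0.16 without WT tumor 3. The membrane anchors Sdhc and Sdhd were at -0.53 and -1.11. In Sdhd, WT tumor 3 read 443 CPM, WT tumor 6 read 215 CPM and the other 7 tumors between 84.0 and 121 CPM, and without WT tumor 3 the log2 fold change was -0.49.

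Complex III, which passes electrons from ubiquinol to cytochrome c, had 8 nuclear subunits, 7 of them below 0, and a median of -0.61, or -0.30 without WT tumor 3. Uqcr10, a small subunit (chr11:4701973-4704342, minus strand), read 71.5, 241, 120 and 65.9 CPM in WT and 64.3, 52.6, 65.1, 56.4 and 38.3 CPM in null. The groups did not overlap, although WT tumor 9 and null tumor 15 differed by less than 1 CPM (log2 fold change -1.17 ± 0.37 SE, edgeR adjusted p = 0.220, and -0.60 without WT tumor 3). Uqcrh, the hinge protein near cytochrome c1, read 143, 673, 326 and 185 CPM in WT against 118 to 167 CPM in null, a log2 fold change of -1.26 that was -0.62 without WT tumor 3. Uqcrq was at -0.93 and Uqcrb at -0.59. The large core protein Uqcrc1 was at 0.05, or -0.05 with upper-quartile scaling, with 124 to 173 CPM in WT and 97.3 to 180 CPM in null. Cycs and Cyc1, cytochrome c and c1, are not members and were near 0, at -0.07 each. Both were above 0 without WT tumor 3, with a median of 0.15. Both were below 0 without null tumor 7, with a median of -0.28.

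All 15 nuclear subunits of complex IV that passed the filter were below 0, with a median of -0.81. When WT tumor 3 was left out the median was -0.27 and 14 were below 0, the exception being Cox7a1. Cox5b, a zinc-binding subunit (chr1:36691449-36693681, plus strand), read 138, 347, 191 and 136 CPM in WT and 124, 129, 132, 85.5 and 108 CPM in null. The groups did not overlap, with WT tumor 9 and null tumor 15 the nearest (log2 fold change -0.81 ± 0.30 SE, edgeR adjusted p = 0.233, and -0.39 without WT tumor 3). Cox7b had the lowest log2 fold change of all members, -1.35 ± 0.50 (SE). It read 102, 610, 225 and 107 CPM in WT and 134, 91.5, 126, 76.1 and 85.8 CPM in null, so WT tumors 2 and 9 lay within the null tumors. Leaving out WT tumor 3 gave -0.46. Cox6c and Cox7a2 were at -0.92 and -0.86, or -0.54 and -0.49 without WT tumor 3.

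Complex IV has tissue-specific isoforms, and the common forms dominated. Cox4i1 read 307, 1878, 691 and 383 CPM in WT and 493, 375, 491, 273 and 302 CPM in null. Cox4i2, the form known for oxygen-dependent regulation in lung, read 0.505 to 3.69 CPM. Per kilobase Cox4i2 made up 0.458% ± 0.318 (SD, n = 4) of the pair in WT and 0.382% ± 0.206 (SD, n = 5) in null. Cox6b2, the testis form, made up 1.52% ± 1.19 of its pair with Cox6b1 in WT and 1.30% ± 0.809 in null. These shares do not depend on scaling between libraries, and they overlapped between the groups.

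The heart and muscle form Cox7a1 read 1.53, 21.4, 3.50 and 2.26 CPM in WT and 6.00, 3.00, 6.37, 2.57 and 2.08 CPM in null. WT tumor 3 decided its sign: the log2 fold change was -0.83 with it and 0.75 without it. Cox6a2 and Cox8b, the other muscle forms, did not pass the filter. Cox6a2 was at most 0.430 CPM, also in WT tumor 3, and Cox8b and Cox8c, a testis form, were at 0. The skeletal muscle actin Acta1 was likewise highest in WT tumor 3, at 11.9 CPM, with 0.770 to 2.10 CPM in the other WT tumors and 0.0505 to 0.513 CPM in null. Whether the muscle list as a whole had that order depended on the measure. Of its 8 markers 3 passed the filter and Myl2 was at 0. The mean log2 CPM of those 3 was highest in WT tumor 3, at 3.28. It was 1.82 to 2.32 in the other WT tumors and -0.27 to 1.64 in null. The 8 summed to 78.1, 40.5, 36.1 and 48.4 CPM in WT and to 4.19, 25.1, 32.3, 27.8 and 53.0 CPM in null, so WT tumor 3 lay below WT tumors 2 and 9 and null tumor 23. The part of muscle cells in the Cox7a1 value was not tested.

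Further forms showed the same overlap. Cox6a1, Cox6b1, Cox7a2l and Cox8a were at -0.36, -0.81, -0.78 and -0.21, or -0.07, -0.18, -0.35 and -0.06 without WT tumor 3. Ndufa4, a subunit of complex IV that was first assigned to complex I, was at -0.50. Its paralog Ndufa4l2, known as a hypoxia-induced gene, read 13.3, 19.4, 13.1 and 37.1 CPM in WT and 3.13, 14.8, 15.2, 18.4 and 31.8 CPM in null. WT tumor 9 and null tumor 23 were high and null tumor 7 low. Per kilobase Ndufa4l2 took between 0.925% and 19.7% of its pair with Ndufa4.

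In complex V, ATP synthase, 16 nuclear subunits passed the filter, 13 of them below 0, with a median of -0.74, or -0.26 without WT tumor 3. The second row named Atp5o, a separate gene identifier, was at 0 in every tumor, while the main one was at -0.97. Atp5a1 and Atp5b, the large alpha and beta subunits of the catalytic head, were at 0.23 ± 0.26 and 0.13 ± 0.20 (SE), and Atp5d, the delta subunit of the central stalk, was at 0.03, or -0.07 with upper-quartile scaling. Atp5b read 773, 624, 753 and 753 CPM in WT and 887, 897, 719, 734 and 743 CPM in null. WT tumor 3 was the lowest of all 9.

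Atp5l, the g subunit of the membrane part, was instead highest in WT tumor 3 and lowest in null tumor 18. It read 115, 646, 171 and 93.2 CPM in WT and 183, 103, 99.3, 81.5 and 85.1 CPM in null. Its log2 fold change was -1.21 ± 0.54 (SE) with all tumors and -0.16 without WT tumor 3. Atp5mpl, a small membrane subunit, was at -1.29, and Atp5e, the epsilon subunit, at -1.15, or -0.44 and -0.50 without WT tumor 3. Atp5c1, Atp5j and Atp5k were at -0.75, -0.68 and -0.86, each at an unadjusted p under 0.05 and none called.

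Atp5g1, Atp5g2 and Atp5g3 encode the same mature c subunit, which forms the rotating ring in the membrane. Per kilobase Atp5g3 supplied 87.5% ± 1.80 (SD, n = 4) of the sum in WT and 85.0% ± 1.88 (SD, n = 5) in null. Atp5g1 supplied 8.60% ± 1.64 and 10.2% ± 1.61, and Atp5g2 the remainder, 3.85% ± 1.4 and 4.83% ± 0.332. The ranges of all 3 shares overlapped between groups. Their log2 fold changes were -0.73, -0.34 and -0.43.

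**Figure D3:**
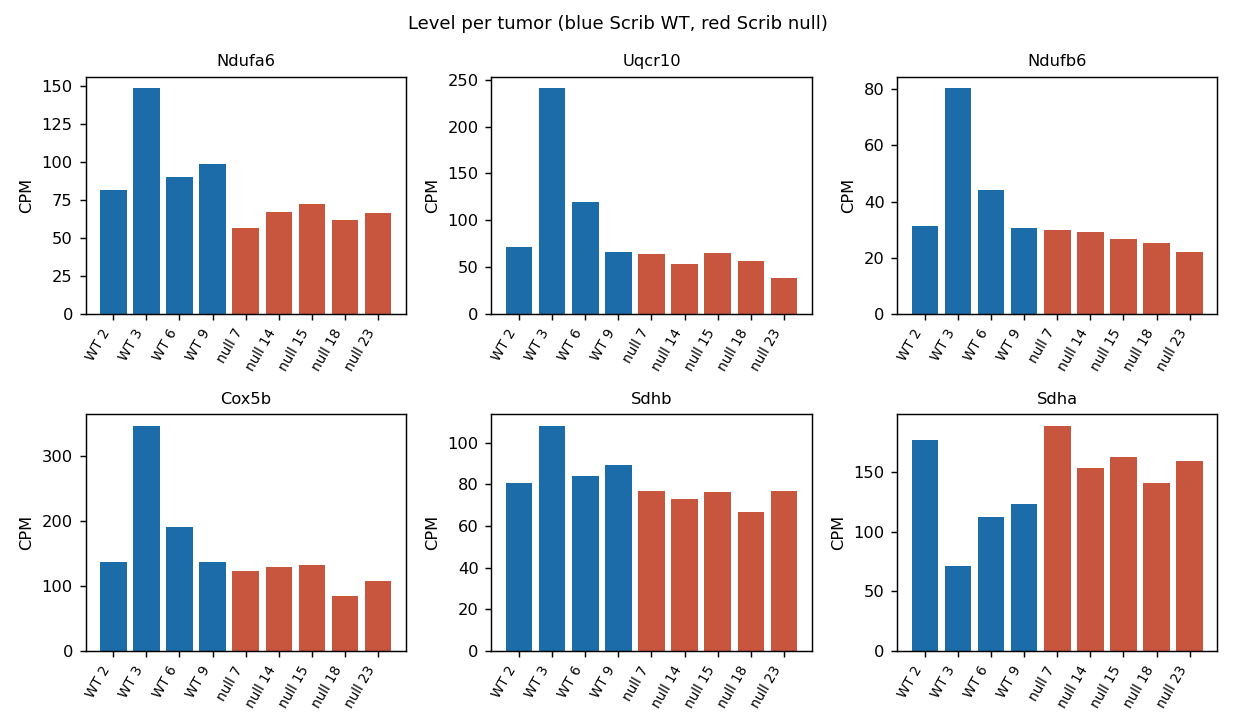
Bars of CPM per tumor from 0 for the 5 members whose groups did not overlap (Ndufa6, Uqcr10, Ndufb6, Cox5b and Sdhb) and for Sdha, with WT in blue and null in red. WT tumor 3 is the highest bar in the first 5, up to 347 CPM in Cox5b, and the lowest in Sdha, at 71.6 CPM.

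Among the Ndufaf assembly factors, Ndufaf5 was at -0.93 ± 0.38 (SE, edgeR adjusted p = 0.255), Ndufaf8 at -0.40 and Ndufaf7 at -0.36. Leaving out WT tumor 3 gave -0.42, -0.01 and -0.06. Ndufaf5 read 6.78, 27.3, 14.5 and 10.6 CPM in WT and 6.32 to 9.28 CPM in null. The highest was WT tumor 3, and WT tumor 2 lay within the null tumors.

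Tumor by tumor, the mean log2 CPM of the nuclear subunits was 6.11, 7.49, 6.75 and 6.27 in WT and 6.32, 6.13, 6.34, 5.90 and 6.02 in null. WT tumors 3 and 6 were above all others, and WT tumors 2 and 9 were inside the null range. WT tumor 3 was the highest tumor in 68 of the 80 nuclear subunits, and null tumor 18 the lowest in 37. The mitochondrial mRNAs ranked the tumors differently: 9.36, 9.08, 9.63 and 8.80 in WT and 9.69, 8.94, 7.94, 8.84 and 8.06 in null. WT tumor 3 was highest in 2 of these 13 genes, WT tumor 6 in 5, null tumor 7 in 4, and null tumors 15 and 23 were the lowest in 8 and 5.

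Set against each other within each tumor, the mitochondrial level minus the nuclear level averaged 2.56 ± 0.71 (SD, n = 4) in WT and 2.55 ± 0.71 (SD, n = 5) in null on the log2 scale. It was 3.25, 1.58, 2.87 and 2.53 in WT tumors 2, 3, 6 and 9 and 3.37, 2.80, 1.60, 2.93 and 2.05 in null tumors 7, 14, 15, 18 and 23. The difference between groups was -0.01, and -0.04 with the copies added. It rested on single tumors: it was -0.33 without WT tumor 3, 0.23 without null tumor 15 and -0.54 without both WT tumor 3 and null tumor 7. From the log2 of summed CPM it was -0.16. All of these are smaller than the SD of either group with no tumor left out. Without WT tumor 3 the WT values lay closer together, from 2.53 to 3.25. The SDs without the left-out tumors were not computed, so the differences without them cannot be weighed against the SDs given. Low values occurred in 1 tumor of each group, WT 3 with its high nuclear level and null 15 with its low mitochondrial level.

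The cytosolic ribosomal protein genes had the same leading tumors as the nuclear subunits. Their mean log2 CPM was 8.76, 10.9, 10.1 and 9.22 in WT and 9.87, 9.21, 9.23, 9.08 and 8.74 in null, with WT tumors 3 and 6 the highest. Of the 78 tested, 74 were below 0 and the median log2 fold change was -0.79, with 0 called. When WT tumor 3 was left out 55 were below 0 and the median was -0.16. Whether the ribosomal and respiratory levels have a common source was not tested.

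**Figure D4:**
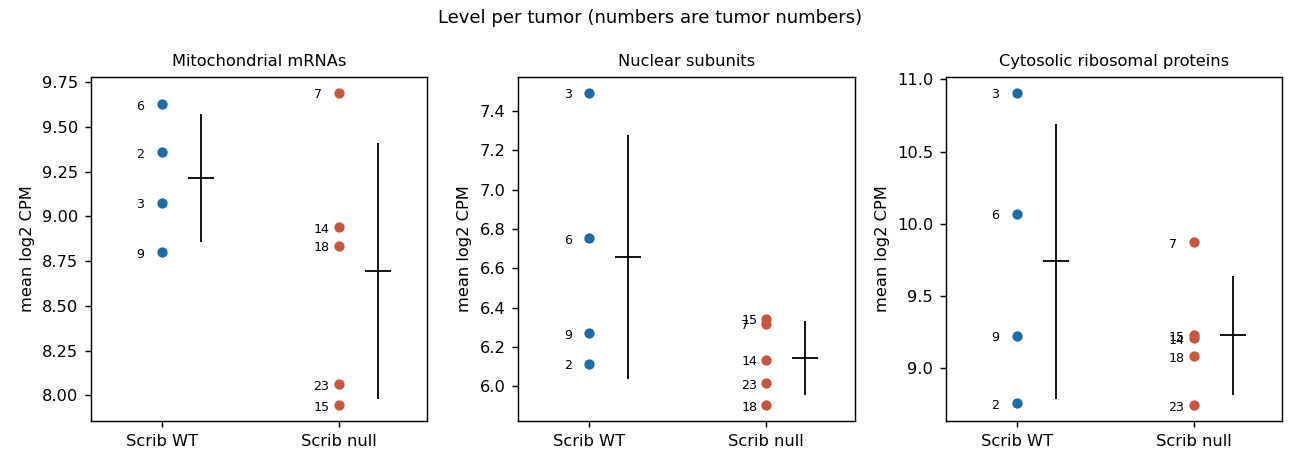
Mean log2 CPM per tumor of the mitochondrial mRNAs, the nuclear subunits and the cytosolic ribosomal protein genes; points are tumors with their numbers, and the bars show mean and SD (n = 4 and n = 5). WT tumor 3 leads the nuclear subunits at 7.49 and the ribosomal genes at 10.9, while null tumor 7 leads the mitochondrial mRNAs at 9.69.

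Transcript length ran along with the fold changes of the nuclear subunits. Under 1 kb were 54 genes with a median log2 fold change of -0.79, of which 53 were below 0. The 26 longer genes had a median of -0.33, with 7 above 0, namely Sdha, Atp5a1, Atp5b and Ndufv1, and Ndufs1, Uqcrc1 and Ndufa10, which were below 0 with upper-quartile scaling. Across the 80 genes, which share the same 9 libraries, Spearman's rho between length and log2 fold change was 0.446, and 0.303 without WT tumor 3. The other protein-coding genes showed a gap as well: the median was -0.54 over 1102 genes under 1 kb and 0.02 over 12979 longer ones. The median transcript of the nuclear subunits tested was 743.5 bases long and that of all genes tested 2517 bases.

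Within single tumors the gap was largest in WT tumor 3. There the short subunits lay 1.30 and the long ones 0.74 above their means over all tumors, in log2 CPM. In null tumor 18 both kinds were below their means, by values of -0.50 and -0.40. Null tumor 7 had short subunits at -0.13 and long ones at 0.10.

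**Figure D5:**
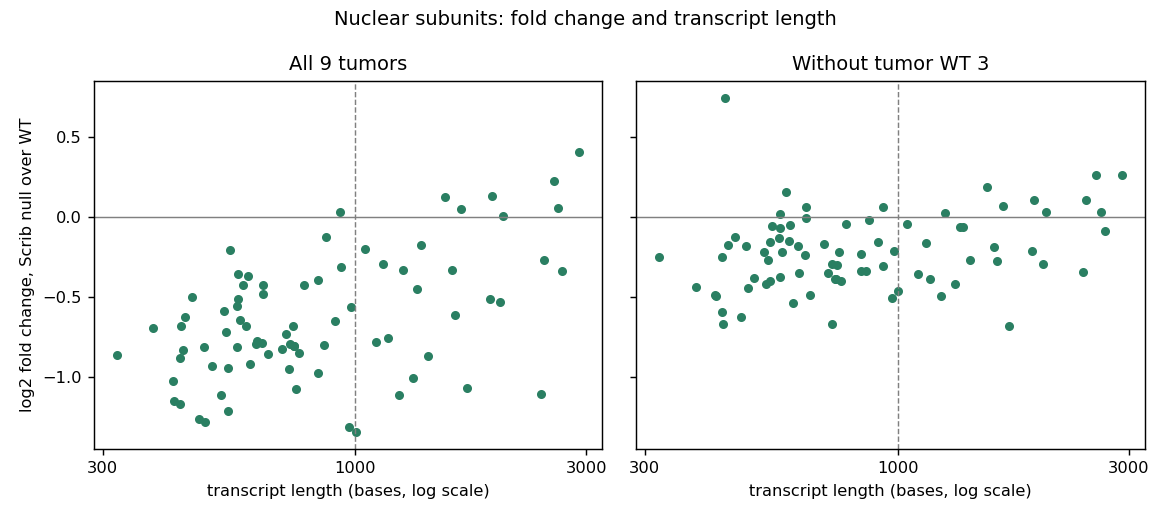
Log2 fold change of each nuclear subunit against its transcript length on a log axis, with all 9 tumors at left and without WT tumor 3 at right; the dashed line marks 1000 bases. Most short genes lie below 0 at left, and the median of the 54 short genes moves from -0.79 to -0.25 at right.

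Markers of other cells differed with the groups beside these results. All 8 macrophage markers were below 0, with a median log2 fold change of -0.86, and they summed to 866 to 1607 CPM in WT and 574 to 1007 CPM in null. All 8 fibroblast markers were below 0 (2083 to 9093 CPM in WT, 351 to 4454 CPM in null), and so were all 6 endothelial markers (203 to 448 and 46.2 to 222 CPM). No marker of these 3 lists was at 0 throughout. The white fat markers summed to 54.4 to 257 CPM in WT and 9.99 to 21.2 CPM in null, with WT tumor 3 the highest, mostly through Fabp4, and Lep was at 0. All 5 erythroid markers were below 0, with a median of -0.96, or -0.57 without WT tumor 3. They summed to 2169, 4743, 1233 and 1459 CPM in WT and 269, 154, 3307, 878 and 724 CPM in null, with WT tumor 3 the highest and null tumor 15 next. The 5 T cell markers that passed the filter, of 7, were below 0 too, with a median of -0.76, and the list summed to 4.78 to 10.8 CPM in WT and 2.67 to 7.87 CPM in null. Of the 4 brown fat markers, Elovl3 was at 0 and Ucp1 at most 3.25 CPM. With the macrophage level as a term in the fit, the nuclear median was -1.12 and the mitochondrial median -1.07, further from 0 than without it. With the acinar level as a term these medians were -0.69 and -0.51, as they were without it. The other cell types were not fitted as terms, and their part was not tested.

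Promoters of nuclear subunits are known to carry sites for NRF1, ETS-family factors and YY1. Letters of each were searched separately on both strands, and Uqcr11 had both the NRF1 and the ETS letters. NRF1 letters, GCGCATGCG, were found in the RefSeq promoters (GRCm38.p6, 250 bases before to 50 after the start) of 8 of 67 matched subunits, or 11.9%, against 1.95% of 27025 genes. ETS letters, CCGGAAGT, were in 5 subunits (7.46%) against 4.31% of genes. YY1 letters, AAGATGGCG, were in 7 subunits (10.4%) against 1.64% of genes. The letters were chosen after the expression values were seen, and a match is a description of the sequence.

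Subunits with the NRF1 letters were Atp5g2, Atp5k, Atp5l, Cox6a1, Ndufa8, Ndufa11, Uqcr11 and Uqcrc1. Their log2 fold changes ran from -1.21 for Atp5l to 0.05 for Uqcrc1. Those with the YY1 letters were Atp5j, Atp5j2, Ndufa9, Ndufc1, Ndufs4, Ndufs6 and Ndufs7, from -1.07 for Ndufs4 to -0.13 for Ndufs7. The promoter of Ndufa11, a membrane-arm subunit at -0.94 ± 0.33 (SE, edgeR adjusted p = 0.227), is printed as an example. It lies upstream of the gene's start at chr17:56717652-56717760, plus strand, with the NRF1 letters in capitals.
Ndufa11 promoter: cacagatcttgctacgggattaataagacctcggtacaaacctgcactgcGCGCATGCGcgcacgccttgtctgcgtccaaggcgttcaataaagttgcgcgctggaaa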

How the data were processed

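The data were 1 table of estimated counts per Ensembl gene, 1 column per tumor, for 9 tumors. The deposited estimated counts were made by the authors per the submitters' processing notes, which list Salmon 1.4.0, DESeq 2, GRCm38 and mm10. How the estimated counts of transcripts were summed to genes, and the annotation release, are not given in the sources used here. Salmon shares reads among similar transcripts, so a row with a near-identical copy depends on that step. Per the labels' protocols, RNA was extracted from frozen tumors with a column kit and made into mRNA libraries.

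Symbols and coordinates came from GENCODE M21 (54131 of 54453 rows matched). Counts were rounded, by at most 0.5, and tumors were grouped by the genotype label. Groups were compared by quasi-likelihood testing in edgeR 4.0.16 (R 4.3.3) after TMM scaling, on 16169 genes kept by filterByExpr (minimum count 10, minimum total 15), with Benjamini-Hochberg adjustment over all of them and a threshold of 0.05. The SE is the size of the log2 fold change divided by the square root of F. CPM used the scaled libraries, log2 CPM a prior count of 2, and length the median basic transcript of a gene. Near-identical copies were found with BLASTN 2.17.0.

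Members and gene lists were chosen with earlier results of these data known. Named were the 13 mitochondrial mRNAs, the isoform sets, Sdha to Sdhd, members at an unadjusted p under 0.05 or without overlap, and up to 3 genes of smallest p in each direction per complex. Cox8c, Atp5s and members named for a copy or for promoter letters were named after their values were seen.

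Each tool was checked on simulated counts in which 200 of 16169 genes differed. Of the 4-fold and 2-fold differences, edgeR found 43% and 2%, and 0 of its 45 calls were false. DESeq2 1.42.0 found 69% and 21%, and 39 of its 129 calls were false. Limma 3.58.1 (voom) found 47% and 3%, and 0 of its 50 calls were false. On simulated counts with 0 genes changed, DESeq2 made 24 calls, and edgeR and voom made 0. Alternatives were other scalings, filters and tools, covariates, each tumor left out, and, chosen after seeing the data, near-identical copies added to their genes and gene lists without WT tumor 3 or null tumor 7. Totals were 10145830 to 27596832 counts, and the common biological coefficient of variation between tumors was 0.494. The part of counting noise in single genes was not computed.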

Additional observations from a re-analysis of the deposited data

Results flagged for a closer look

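In the 69 named members and 4 summary levels (the mitochondrial share, the mitochondrial minus nuclear level, and the mean level of each set), 146 groups of 4 or 5 tumors were examined for a tumor far from the rest of its group by Dixon's criterion, and 9 were found; chance alone gives about 1 in 20. In the WT group, tumor 3 lay above the others in Atp5g1 at 144.2 CPM, Atp5l at 645.5 CPM, Cox7a1 at 21.39 CPM and Uqcrq at 301.4 CPM, and below them in Atp5b at 623.7 CPM. In the null group, tumor 7 lay above the others in Atp5l at 183.2 CPM and mt-Atp6 at 731.5 CPM. Null tumor 15 lay above them in Cox6a1 at 255.4 CPM and Cox6c at 143.9 CPM, although it was the lowest tumor for 8 of the 13 mitochondrial mRNAs.

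Counts also lay on rows that the comparisons do not use, namely pseudogene copies of members. Summed over the 9 tumors there were 599874 counts on Gm28661 (copy of mt-Co2), 560965 on Gm28437 (mt-Co3), 421374 on Gm10925 (mt-Atp6) and 220453 on Gm29216 (mt-Co1). Among copies of nuclear members there were 9074 on Ndufb4c, 4504 on Gm12338 (copy of Cox7c), 2234 on Gm10221 (Atp5l), 1833 on Gm15920 (Ndufa12) and 1496 on BC002163 (Ndufs5). All are annotated as pseudogenes.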

How the results depend on the processing

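No paired analysis was possible because the groups share no tumor numbers. Under every alternative run, 0 members were called. Genes called over the whole table numbered 2 of 16169, against 7 of 30590 with no filter and 642 of 30346 with DESeq2. Limma-voom called 6. The number was 4 with the macrophage level and 1 with the acinar level as a term. It was 0 with the tumor identifier range as a term or without WT tumor 3 and null tumor 7. With each tumor left out it was 0 to 1. The nuclear median of -0.69 became -1.12 with the macrophage level as a term and ranged from -0.85 to -0.22 with each tumor left out, the latter without WT tumor 3. The mitochondrial median ranged from -0.74 without null tumor 7 to -0.33 without null tumor 15. The sign held under all settings in 9 of 13 mitochondrial mRNAs, 69 of 80 nuclear subunits and 5 of 9 assembly and coupling factors. Why the following signs turned was not tested. With upper-quartile scaling the log2 fold change was -0.067 for Atp5d, -0.084 for Ndufa10, -0.035 for Ndufs1 and -0.045 for Uqcrc1. RLE scaling gave -0.0082 for Ndufa10. A strict filter gave -0.0056 for Atp5d and -0.028 for Ndufa10. With limma-voom it was -0.075 for Atp5d, 0.045 for Cox7a1, -0.33 for mt-Atp8, -0.10 for Ndufa10, -0.053 for Ndufs1 and -0.036 for Uqcrc1. The identifier range gave -0.066 for Atp5d, -0.14 for mt-Atp8, -0.079 for Ndufa10 and -0.092 for Uqcrc1. The macrophage level gave -0.039 for Atp5d, -0.27 for mt-Atp8, -0.021 for Ndufa10, 0.47 for Ndufa4l2 and -0.049 for Ndufs1. Without WT tumor 3 and null tumor 7 it was -0.026 for Atp5d, 0.13 for Atp5g2, 0.55 for Cox7a1, -0.34 for mt-Atp8, -0.11 for Ndufa10, 0.023 for Ndufaf8, -0.11 for Ndufs1 and -0.021 for Uqcrc1. With each tumor left out the ranges were -0.037 to 0.088 for Atp5d, -0.69 to 0.16 for Atp5g2, -1.16 to 0.75 for Cox7a1, -0.66 to 0.20 for mt-Atp6, -0.17 to 0.35 for mt-Atp8, -0.84 to 0.039 for mt-Co3, -0.72 to 0.067 for mt-Nd6, -0.12 to 0.071 for Ndufa10, -0.69 to 0.13 for Ndufa4l2, -0.063 to 0.13 for Ndufs1 and -0.023 to 0.16 for Uqcrc1.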

Other observations

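Genes that transcribe and maintain mitochondrial DNA were divided in direction. Of 33 genes of mitochondrial transcription and DNA maintenance, 13 were above 0 and 20 below, with a median log2 fold change of -0.09 and 0 called by edgeR; 3 were higher and 3 lower at an unadjusted p under 0.05, against 7.64% and 10.0% of all genes. Without WT tumor 3, 17 were above 0 and 16 below. Tfam, which packages mitochondrial DNA, was at -0.33 ± 0.22 (SE), Polrmt, its RNA polymerase, at 0.46 ± 0.27 and Lrpprc, which stabilises its mRNAs, at 0.53 ± 0.19. The smallest p values belonged to Mterf1b, at -1.77 ± 0.46, and to Twnk, the mitochondrial helicase. Twnk read 24.1, 24.1, 32.9 and 20.9 CPM in WT and 73.7, 36.5, 41.9, 44.2 and 37.0 CPM in null, so every null tumor was above every WT tumor (log2 fold change 0.87 ± 0.26 SE, edgeR adjusted p = 0.208). Mterf1a and Mterf1b are close paralogs, and the split of reads between them is uncertain.

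Of 11 nuclear regulators tested, 8 were above 0, with a median of 0.24 and 0 called. Without WT tumor 3 the median was 0.12, with 7 above 0 and 4 below. Pprc1, a PGC-1 family coactivator, read 60.8, 32.7, 45.3 and 45.5 CPM in WT and 168, 107, 65.6, 96.0 and 84.4 CPM in null without overlap (1.18 ± 0.29 SE, edgeR adjusted p = 0.201). Hcfc1, a chromatin cofactor, was at 0.98, Nrf1 at 0.30 and Ppargc1a, which was low at 0 to 7.16 CPM, at 0.24. WT tumor 3 was the lowest of all tumors for Pprc1, Hcfc1 (37.5 CPM), Nrf1 (25.8 CPM) and Ppargc1a (0 CPM). The 78 mitochondrial ribosomal protein genes, which translate the mitochondrial mRNAs, had a median of -0.43 with 65 below 0 and 0 called, Mrpl33 at -1.02 and Mrpl41 at -1.24 having the smallest p. At an unadjusted p under 0.05, 18 were lower and 1 higher, against 10.0% and 7.64% of all genes. Their mean log2 CPM was 4.95, 6.15, 5.71 and 5.13 in WT and 5.43, 5.09, 5.35, 4.97 and 5.00 in null, so WT tumors 3 and 6 were the highest, as for the nuclear subunits. Without WT tumor 3 the median was -0.12, with 52 below 0 and 0 lower at that p, against 6.61% of all genes. Of 43 other assembly factors 35 were below 0, median -0.35, or -0.15 without WT tumor 3. Pet100 was the furthest below 0, at -1.44, and Coa4 at -1.23 and Coa6 at -1.03 had the smallest p. The 17 genes of the TCA cycle and pyruvate dehydrogenase were split, 7 above and 10 below 0, with a median of -0.06. Cs, citrate synthase, was at 0.21, Fh1 at -0.65 and Dlat at 0.45.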
